A study of Mus musculus with 4 samples.

Results

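Voltage-gated sodium channels were followed at the RNA level in mouse cortical culture after knockdown of CTCF. The set held 7 subunit genes of the 37437 genes in each file, chosen by name: the pore-forming alpha subunit genes Scn1a, Scn2a, Scn3a and Scn8a, and the auxiliary beta subunit genes Scn2b, Scn3b and Scn4b. Primary mouse cortical culture was infected with an adeno-associated virus directed against Ctcf (shCTCF) or against lacZ, a bacterial gene that mice lack (shLAC, the control), with 2 libraries in each group. All 4 libraries thus came from virus-treated cultures, no untreated culture was analysed here, and the labels do not give the strain, the age of the cultures, the time after infection or the promoter of the virus. The comparison asked whether the level of each subunit transcript differed between shCTCF and shLAC.

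A voltage-gated sodium channel is built from 1 large alpha subunit, which forms the pore and the voltage sensors, and smaller beta subunits, which are membrane proteins with an immunoglobulin-like fold that tune gating and cell adhesion. The channels are concentrated at the axon initial segment, where the scaffold protein ankyrin-G holds them and where the action potential starts. In the cortex, Scn3a is known as an alpha gene of immature neurons, Scn2a and Scn8a as those of excitatory axons, and Scn1a as one on which inhibitory interneurons depend. CTCF is a DNA-binding protein at which cohesin stops, which sets the borders of chromatin loops.

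The 4 alpha genes encode closely related channels, which matters for how reads were divided among them. Over the longest open reading frame of each gene in the GENCODE vM21 transcripts, Scn2a and Scn3a were identical at 83.6% of aligned bases, Scn1a and Scn2a at 82.7%, and Scn2a and Scn8a at 73.8%. The longest run of identical bases was 188 between Scn1a and Scn2a and 32 between Scn2a and Scn8a. Reads were 101 bases long, and of the windows of that length in the longest transcript, 1.18% in Scn1a, 1.46% in Scn2a and 2.87% in Scn3a also occurred in another sodium channel gene. None of the 11336 windows of Scn8a did, nor any of the windows of Scn2b (4556), Scn3b (4050) or Scn4b (4882). Exact sharing at read length was therefore limited to a small part of the 3 alpha genes of chromosome 2.

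The 7 genes lay on 3 chromosomes (GENCODE vM21 on GRCm38, all protein-coding). Scn3a (ENSMUSG00000057182, chromosome 2, 65457118 to 65567627, - strand), Scn2a (ENSMUSG00000075318, chromosome 2, 65620771 to 65767447, + strand) and Scn1a (ENSMUSG00000064329, chromosome 2, 66270778 to 66440840, - strand) lay in 1 array, with 53.1 kb between Scn3a and Scn2a and 503 kb between Scn2a and Scn1a. On chromosome 9, Scn2b (ENSMUSG00000070304, 45117782 to 45130070) and Scn4b (ENSMUSG00000046480, 45138395 to 45154152) were 8.32 kb apart on the + strand, and Scn3b (ENSMUSG00000049281, 40269217 to 40291618, + strand) lay 4826 kb away from Scn2b. Scn8a (ENSMUSG00000023033, 100869858 to 101045938, + strand) was alone on chromosome 15.

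Levels are in TPM, a length-corrected share of all transcripts, so that genes can be compared within a library; sequencing depth is unknown. One control library, shLAC replicate 2, had lower values for most genes, and the median coding gene was 0.17 log2 units higher in shCTCF as deposited. Changes are therefore given after median-ratio scaling among 11273 protein-coding genes that were at least 300 nt long and reached 1 TPM in 2 libraries, with scale factors from 0.832 in shLAC replicate 2 to 1.10 in shCTCF replicate 1. On this scale the shCTCF libraries correlated with each other across genes at r = 0.9965 and the shLAC libraries at r = 0.9865. Libraries of different groups correlated at r = 0.9865 to 0.9916, so the shLAC libraries were no more alike than libraries of different groups. Genes are not independent replicates. Ctcf itself, which checks the labels, was at 8.49 and 7.32 TPM in shLAC and at 3.56 TPM in both shCTCF libraries (scaled log2 change -1.13, SE 0.0663, limma adjusted p = 0.00459). No label says that replicates were separate cultures, so p-values measure only how these libraries vary, and that spread may be technical.

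The alpha subunits were led by Scn2a, which encodes Nav1.2. Scn2a was at 54.5 and 43.6 TPM in shLAC and at 52.4 and 47.5 TPM in shCTCF. As deposited the groups overlapped. After scaling Scn2a was at 52.1 and 52.5 in shLAC and at 47.8 and 45.4 in shCTCF, and both knockdown libraries lay below both controls. The scaled log2 change was -0.16 (SE 0.0484, 95% interval -0.28 to -0.05), and it did not pass (limma adjusted p = 0.116; unadjusted p = 0.0142 in the same limma fit).

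Scn8a encodes Nav1.6, the alpha subunit of mature initial segments and nodes. It was at 17.8 and 13.0 TPM in shLAC and at 19.6 and 19.4 TPM in shCTCF, and both knockdown values lay above both controls. After scaling the values were 17.0 and 15.7 against 17.9 and 18.5, again without overlap. The scaled log2 change was 0.15 (SE 0.0570, 95% interval 0.01 to 0.29), and it did not pass (limma adjusted p = 0.184; unadjusted p = 0.0374). In fold terms on the log2(TPM + 1) scale, the interval ran from 1.01 to 1.22.

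Scn3a, which encodes Nav1.3, was at 9.93 and 8.80 TPM in shLAC and at 9.68 and 10.4 TPM in shCTCF. The groups overlapped on both scales, with a scaled log2 change of -0.09 (SE 0.0778, limma adjusted p = 0.533). Scn1a, which encodes Nav1.1, was at 6.10 and 4.39 TPM in shLAC and at 5.81 and 5.09 TPM in shCTCF. Its groups also overlapped on both scales (scaled log2 change -0.11, SE 0.0734, limma adjusted p = 0.422). The 95% intervals of these fits ran from -0.28 to 0.10 for Scn3a and from -0.29 to 0.07 for Scn1a. Neither gene was shown to differ, and neither was shown to stay level.

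**Figure D1:**
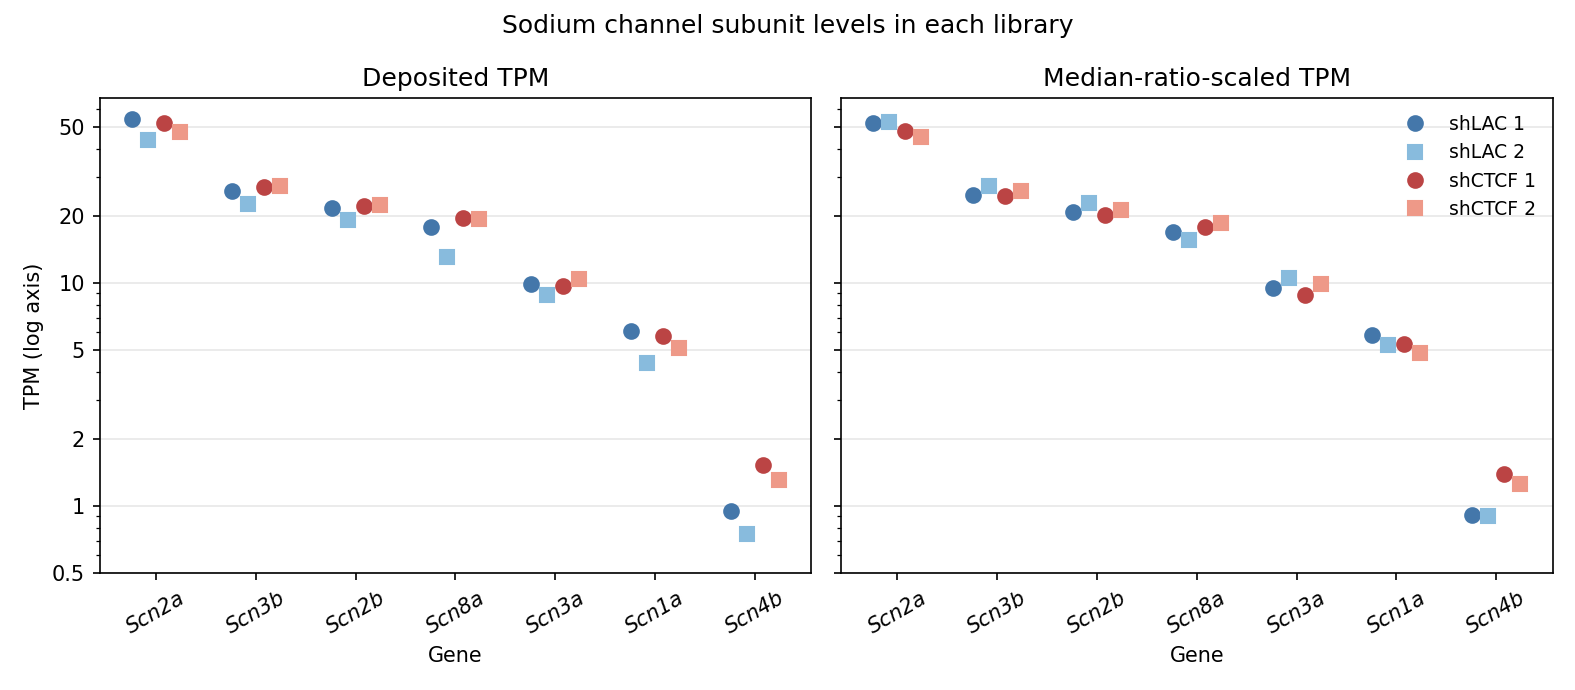
TPM of the 7 subunit genes in each of the 4 libraries on a log axis, as deposited (left) and after median-ratio scaling (right); each point is 1 library. Scn2a is highest and Scn4b lowest in every library, and after scaling the shCTCF points lie above both shLAC points for Scn8a and Scn4b and below both for Scn2a.

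Among the beta subunits, Scn2b and Scn3b were abundant. Scn3b, whose beta3 protein binds the alpha subunit without a covalent bond, was at 25.9 and 22.6 TPM in shLAC and at 26.9 and 27.2 TPM in shCTCF. Both knockdown values were higher as deposited, and after scaling the groups overlapped (24.8 and 27.1 against 24.5 and 25.9). The scaled log2 change was -0.04 (SE 0.0610, 95% interval -0.19 to 0.11, limma adjusted p = 0.753).

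Scn2b, whose beta2 protein is linked to the alpha subunit by a disulfide bond, was at 21.8 and 19.1 TPM in shLAC and at 22.2 and 22.3 TPM in shCTCF. It too was higher in both knockdown libraries as deposited and overlapped after scaling (20.8 and 22.9 against 20.2 and 21.3). Its scaled log2 change was -0.07 (SE 0.0622, 95% interval -0.22 to 0.08, limma adjusted p = 0.534).

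Scn4b, whose beta4 protein is the other disulfide-linked subunit and is known for its part in resurgent sodium current, had the lowest level. It was at 0.95 and 0.75 TPM in shLAC and at 1.52 and 1.31 TPM in shCTCF, and the groups did not overlap on either scale. After scaling the shLAC libraries were at 0.908 and 0.902 and the shCTCF libraries at 1.39 and 1.25, a mean 146% of control. The scaled log2 change was 0.28 (SE 0.0748, 95% interval 0.10 to 0.46), and it did not pass (limma adjusted p = 0.0891; unadjusted p = 0.00862). Scn4b reached 1 TPM only in the shCTCF libraries, so it entered the test only through the group in which it was higher. At this level, in the lowest 2.89% of the tested coding genes, the added 1 TPM also makes the fold change smaller: with 0.1 TPM added it was 0.50 on the log2 scale.

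Of the 7 genes, 0 passed in either direction at a limma adjusted p below 0.05, where 5.09% of the 11273 tested coding genes did (2.17% higher and 2.92% lower). Without scaling 1.53% of them passed, with 117 higher (1.04%) and 56 lower (0.497%), against 245 higher and 329 lower with it. The number called was 1105 without shLAC replicate 1, 957 without shLAC replicate 2, 228 without shCTCF replicate 1 and 100 without shCTCF replicate 2, against 574 with all 4 libraries. Scn4b, which entered the test only through shCTCF, is left out of the counts that follow. Of the other 6 members, 2 (Scn2a and Scn8a) had an unadjusted p below 0.05, where 23.3% of the tested coding genes did. In every alternative fit of all 4 libraries, 0 members passed as well, Scn4b included. These fits used other scalings, filters, prior or pseudocounts, or a replicate block. Their lowest limma adjusted p was 0.0605 for Scn4b (constant prior), and 0.0863 among the other 6 members (Scn2a, replicate block). The median scaled change of these 6 was -0.08, beside -5.02e-04 for all tested coding genes. After scaling 1 of the 6 (Scn8a) did not overlap upward and 1 (Scn2a) downward, where 27.5% and 27.1% of the tested coding genes did. As deposited 3 of the 6 (Scn8a, Scn2b and Scn3b) did not overlap upward and 0 downward, where 44.9% and 3.35% of the tested coding genes did.

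**Figure D2:**
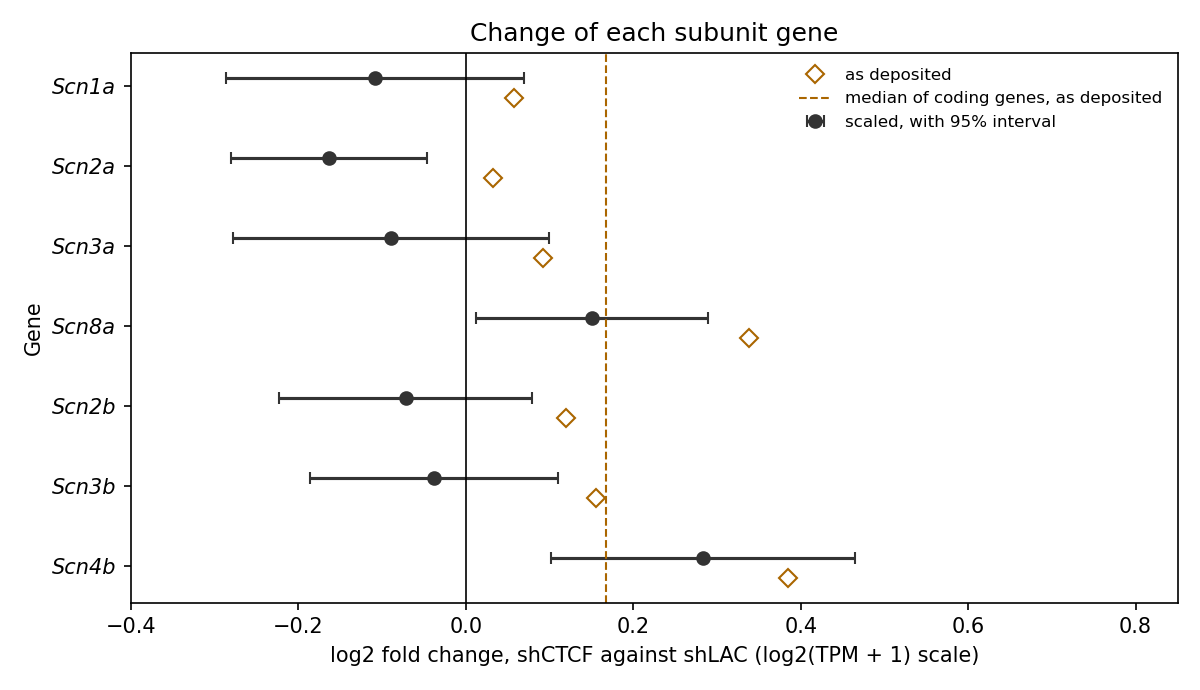
Log2 change of each subunit gene, shCTCF against shLAC, on the log2(TPM + 1) scale: filled points with 95% intervals after scaling, open diamonds as deposited, and the dashed line at 0.17 the median of coding genes as deposited. The scaled intervals leave out 0 for Scn2a, Scn8a and Scn4b before adjustment over genes, and the sign of the other 4 and of Scn2a depends on the scaling.

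The fitted changes of the members lay between 0.893-fold (Scn2a) and 1.22-fold (Scn4b) on the log2(TPM + 1) scale. Among the tested coding genes, changes of that size were called in places, such as the 1.19-fold change of the neuronal marker Rbfox3, close to the threshold (limma adjusted p = 0.0498). In simulated data with 200 changed genes, however, the fit recovered 0 of them at 1.2-fold and 157 at 1.5-fold. Fewer genes were changed there than the 574 called in the data, which makes the adjustment stricter. Genes as low as Scn4b were not among those changed. The recovered counts are therefore not the rate of detection in these data. Changes as small as those of the members could still be missed. With 2 libraries against 2, an exact permutation test cannot give a 2-sided p below 0.333.

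The make-up of the alpha pool is free of library scale, since each share is taken within a library. Scn2a made up 61.7% and 62.5% of the summed TPM of Scn1a, Scn2a, Scn3a and Scn8a in shLAC, and 59.9% and 57.7% in shCTCF. Scn8a made up 20.1% and 18.6% in shLAC, and 22.4% and 23.6% in shCTCF. For both genes the groups did not overlap, and the mean share differed by -3.32 percentage points for Scn2a and by 3.60 for Scn8a. Put as a ratio, Scn8a stood at 0.326 and 0.298 of Scn2a in shLAC and at 0.374 and 0.408 in shCTCF. Scn3a made up 11.2% and 12.6% in shLAC and 11.1% and 12.6% in shCTCF, and Scn1a 6.91% and 6.29% against 6.64% and 6.17%, so that both overlapped. With any 1 library left out, the mean share of Scn8a was 2.87 to 4.34 points higher. That of Scn2a was 2.21 to 4.43 points lower. Because the groups did not overlap, leaving out 1 library could change the size of these differences but not their sign. Shares within a library are parts of the same sum. The lower Scn2a share and the higher Scn8a share are thus not separate observations. With 2 libraries against 2, an exact permutation test of such non-overlap could not give a 2-sided p below 0.333. These shares are a description of 4 libraries and carry no test.

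**Figure D3:**
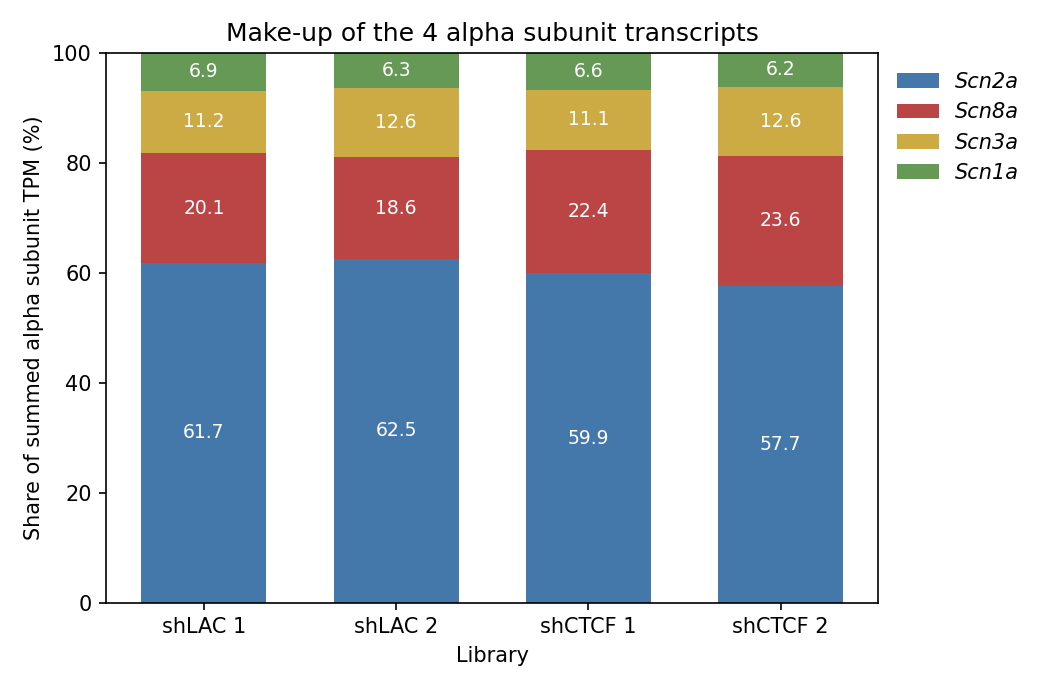
Share of each alpha subunit gene in the summed alpha TPM of each library, in percent, as stacked bars that add to 100. Scn8a takes 18.6% to 20.1% in the shLAC libraries and 22.4% to 23.6% in the shCTCF libraries, while Scn2a goes from 61.7% to 62.5% down to 57.7% to 59.9%.

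The summed scaled level of the 4 alpha genes was 84.4 and 84.0 in shLAC and 79.8 and 78.7 in shCTCF, 94.1% of control. As deposited the sums were 88.3 and 69.8 TPM against 87.5 and 82.4 TPM, which overlapped. The 3 beta genes summed to 46.5 and 51.0 after scaling in shLAC and to 46.1 and 48.5 in shCTCF, with overlap. Per unit of alpha transcript there were 0.551 and 0.607 of beta in shLAC and 0.578 and 0.616 in shCTCF, with overlap. Within the beta genes the ratio of Scn4b to Scn2b was 0.0436 and 0.0393 in shLAC and 0.0686 and 0.0587 in shCTCF, while that of Scn3b to Scn2b lay between 1.18 and 1.22 in all 4 libraries. The beta4 transcript was thus a small part of the beta pool in both groups.

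The order of the 7 levels was the same in each of the 4 libraries: Scn2a, Scn3b, Scn2b, Scn8a, Scn3a, Scn1a and Scn4b. Scn2a was 1.75 to 2.10 times as high as Scn3b within a library, and Scn1a 3.82 to 6.42 times as high as Scn4b. The closest neighbours were Scn2b and Scn8a, with ratios from 1.13 to 1.46, and Scn3b and Scn2b, with ratios from 1.18 to 1.22. Between libraries the deposited values of Scn2b and Scn8a crossed. The highest Scn8a value, 19.6 TPM in shCTCF replicate 1, was above the lowest Scn2b value, 19.1 TPM in shLAC replicate 2. After scaling they did not cross (highest Scn8a 18.5, lowest Scn2b 20.2). The values of Scn3b and Scn2b did not cross on either scale. By mean TPM, Scn2a was above 93.4% of the tested coding genes and Scn1a above 40.8%.

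Genes with the pattern most like that of Scn2a, the most abundant member, were Kcnip2, which encodes a potassium channel interacting protein, Decr1, a mitochondrial enzyme of fatty acid oxidation, and Btf3l4. Their centred log2 scaled values over 4 libraries lay at Euclidean distances of 0.0143, 0.0163 and 0.0165 from those of Scn2a. Within a distance of 0.1 lay 1084 of the tested coding genes, so 4 libraries single out few patterns.

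Of the other sodium channel alpha genes, 5 (Scn4a, Scn7a, Scn9a, Scn10a and Scn11a), known mainly from muscle, glia or sensory neurons, were between 0 and 0.29 TPM in every library and were not tested. Nalcn, which encodes a sodium leak channel, was at 13.8 and 11.0 TPM in shLAC against 14.2 and 13.6 TPM in shCTCF and did not pass (scaled log2 change -0.02, SE 0.0477, limma adjusted p = 0.804).

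The scaffold that anchors the channels held the only partner gene that passed. Ank3, which encodes ankyrin-G, was at 20.4 and 17.0 TPM in shLAC and at 33.3 and 33.2 TPM in shCTCF. Both knockdown libraries were well above both controls. Ank3 rose by 0.61 on the log2 scale after scaling (SE 0.0508, limma adjusted p = 0.00660), and it passed in all 14 alternative fits (log2 change 0.57 to 0.80, limma adjusted p from 2.54e-05 to 0.0400). It was 1 of 27 tested genes of the channel's partners and regulators that passed, where 5.09% of tested coding genes did.

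Among 10 genes of the axon initial segment, 1 rose, 0 fell and 9 did not pass, with a median scaled change of 0.17. All 10 had a positive scaled value and 9 lay without overlap above control, where 27.5% of tested coding genes did. Without shLAC replicate 2 or without shCTCF replicate 1, 9 of 10 were positive. An upward shift was not particular to this list. Without overlap above control also lay 5 of 6 excitatory, 6 of 8 tested inhibitory and 5 of 8 pan-neuronal markers. Of these markers, 1 pan-neuronal gene lay below control. Their median scaled changes were 0.22, 0.12 and 0.10, beside -5.02e-04 for all tested coding genes. Kcnq3, a subunit of the M-type potassium channel that binds ankyrin-G, was at 16.6 and 13.0 TPM in shLAC and at 19.9 and 19.7 TPM in shCTCF (scaled log2 change 0.22, limma adjusted p = 0.0572). Sptbn4, the betaIV spectrin that ties ankyrin-G to actin, was at 8.70 and 6.70 TPM against 10.4 and 10.6 TPM (scaled log2 change 0.23, limma adjusted p = 0.0735). Nfasc, the adhesion protein neurofascin, had a scaled log2 change of 0.16 (limma adjusted p = 0.157). These 3 were named after their values were seen.

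Of 4 FGF homologous factors, which bind the tail of the alpha subunit and shape inactivation, 0 passed and 0 had an unadjusted p below 0.05, with a median scaled change of -0.02. Fgf12 was at 28.2 and 23.6 TPM in shLAC and at 29.7 and 26.3 TPM in shCTCF (scaled log2 change -0.08, limma adjusted p = 0.433), and Fgf13 at 25.1 and 19.3 against 24.8 and 24.6 TPM (-0.03, limma adjusted p = 0.755). Of 13 regulators, among them protein kinases and the ubiquitin ligases of the Nedd4 family, 0 passed and 1 had an unadjusted p below 0.05, with a median of -0.01. Calm2, a calmodulin gene and the most abundant of them, had a scaled log2 change of -0.06 (limma adjusted p = 0.687).

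**Figure D4:**
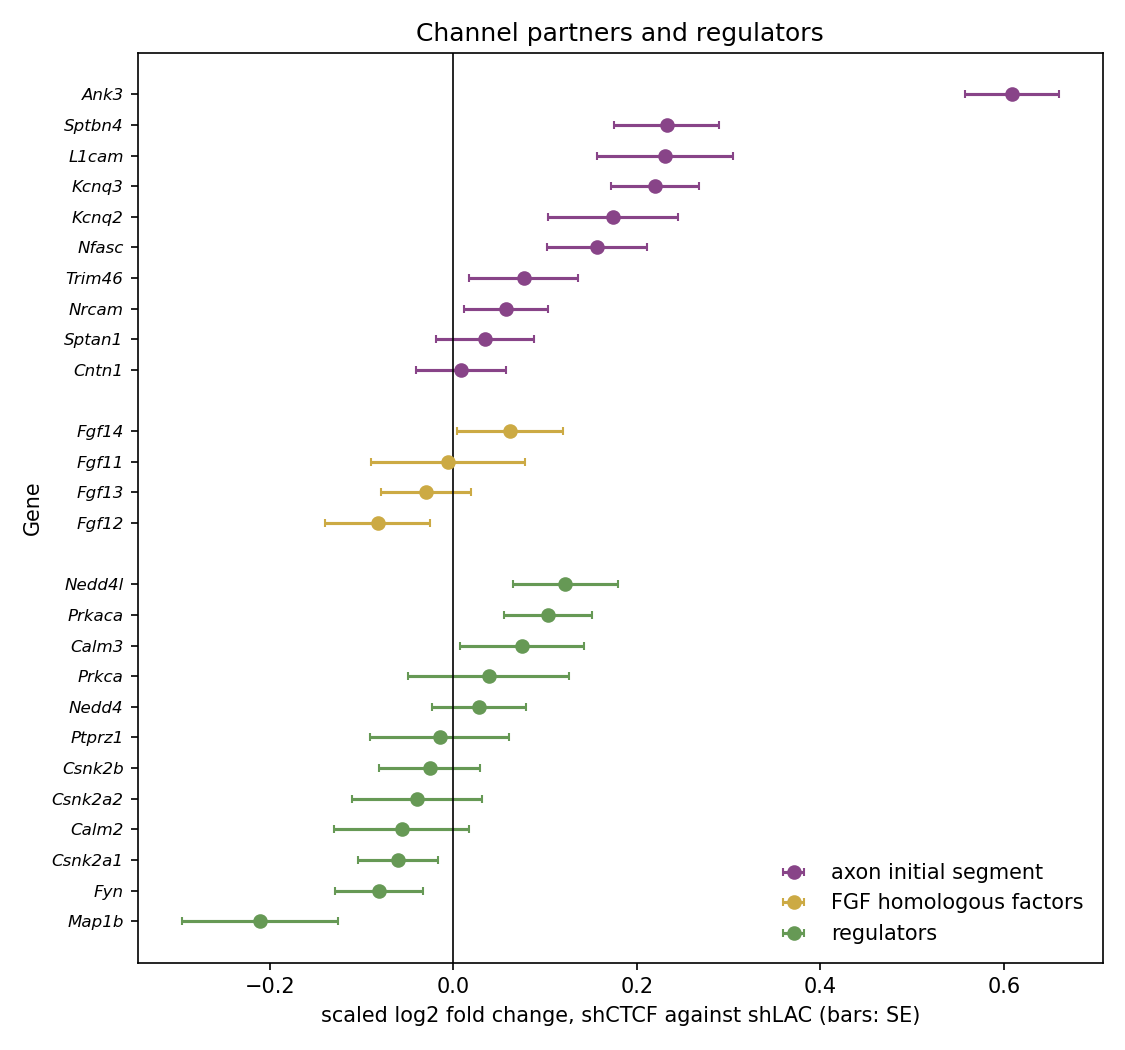
Scaled log2 change, shCTCF against shLAC, of 26 of the 27 tested channel partners and regulators (1 regulator is not shown), with bars of 1 standard error; colours mark the 3 lists. Ank3 stands at 0.61, the other 9 initial segment genes lie between 0.01 and 0.23, and the regulators lie on both sides of 0.

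Levels of cell type markers were read beside these results, each list summed over all its genes; their counts stand beside 5.09% of tested coding genes called and 23.3% at an unadjusted p below 0.05. Of 8 pan-neuronal markers, 7 had a positive scaled value and 1 rose, Rbfox3 (scaled log2 change 0.25, limma adjusted p = 0.0498), and the summed scaled level of the list was 1018 to 1029 in shLAC and 1042 to 1057 in shCTCF. The 6 excitatory markers summed to 189 to 198 against 223 to 233, with 0 called and 4 at an unadjusted p below 0.05. The inhibitory markers, 8 tested and 0 called, 1 at an unadjusted p below 0.05, summed to 213 to 224 against 232 in both. All 7 tested astrocyte markers had negative values and 2 fell, Aqp4 (-1.07) and Slc1a3 (-0.52), with sums of 108 to 129 against 82.6 to 103. Immature neuron markers, 6 tested and 0 called, 2 at an unadjusted p below 0.05, summed to 371 to 395 against 333 to 335. Most of that sum was Stmn1, at 318 and 340 in shLAC against 278 in both shCTCF libraries after scaling. Of the 6 tested, 4 had a positive scaled value and 2 a negative one, with a median of 0.03. Oligodendrocyte lineage markers, 7 tested, 0 called and 0 at an unadjusted p below 0.05, summed to 69.1 to 81.9 against 75.8 to 83.7. Fibroblast markers summed to 3.09 to 3.19 against 1.83 to 2.14, and Dcn, the 1 tested, fell. Without shCTCF replicate 2 none of the calls of Rbfox3, Aqp4, Slc1a3 and Dcn held (limma adjusted p = 0.130, 0.0571, 0.0848 and 0.144), and without shCTCF replicate 1 those of Rbfox3 (0.179) and Dcn (0.0563) did not. All 4 calls were also lost with no filter on low values (0.0935, 0.0686, 0.0777 and 0.0835) and in all tested genes after scaling (0.119, 0.0858, 0.0951 and 0.0839). As deposited, the calls of Rbfox3 (0.492), Slc1a3 (0.645) and Dcn (0.439) were lost in the coding genes, while Aqp4 passed (2.32e-05). Microglial and endothelial markers summed to under 1 in every library, and the endothelial marker Cldn5 was listed at 0 in all 4. Pvalb, which marks a class of interneurons known for Scn1a, was between 0.20 and 0.63 TPM and was not tested. The part of cell make-up in the values of the sodium channel genes and of Ank3 was not tested, and in bulk RNA more cells of a type and more RNA per cell cannot be told apart.

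Within 1 Mb of a member's start lay 58 other tested coding genes, of which 1 rose and 0 fell, where 5.09% of tested coding genes were called, and their median scaled change was 0.02. Without overlap, 15 of the 58 lay above control and 13 below, where 27.5% and 27.1% of tested coding genes did. The gene that rose was Cbl, a ubiquitin ligase gene on chromosome 9 (7.46 and 5.34 TPM in shLAC, 9.45 and 9.20 TPM in shCTCF, scaled log2 change 0.32, limma adjusted p = 0.0490). Cbl did not pass as deposited (limma adjusted p = 0.312 in the coding genes), nor without shLAC replicate 2 (0.0733), shCTCF replicate 1 (0.134) or shCTCF replicate 2 (0.213). As deposited another neighbour was the 1 called: Fxyd2, which encodes a regulator of the sodium pump and starts 261274 bp from the start of Scn4b, was at 1.61 and 2.20 TPM in shLAC and at 3.16 and 3.37 TPM in shCTCF. Its log2 change as deposited was 0.56 (limma adjusted p = 0.0404), and after scaling it was 0.41 and did not pass (limma adjusted p = 0.205). Fxyd2 was named after its values were seen. The count of neighbours called was 0 without either shCTCF library, 3 without shLAC replicate 1 and 4 without shLAC replicate 2.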

How the data were processed

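RNA-seq of 4 libraries, 2 per group, was analysed. Per the labels' protocols, total RNA was extracted with TRIzol, fragments of about 300 bp were selected and paired reads of 101 bp were sequenced. The deposited files hold TPM per Ensembl gene, made by the authors; RSEM 1.2.28, CASAVA and mm10 are named in the submitters' processing notes, while the sources used here do not give the annotation, the alignment settings or the use of strand. Each file sums to 1000000 TPM, which keeps no depth, so no counting interval is given, and reads of antisense or overlapping genes cannot be told apart.

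Symbols came from GENCODE vM21 (36976 of 37437 identifiers matched). The 11273 protein-coding genes that were at least 300 nt long and reached 1 TPM in 2 or more libraries were scaled by median ratio. The log2(TPM + 1) values were fitted by group alone in limma 3.58.1 (R 4.3.3) with a trended prior, and p was adjusted by Benjamini-Hochberg over all 11273 at 0.05. Intervals are 95% and not adjusted. The limma prior had 4.20 degrees of freedom. The fit was tested on simulated data. Non-overlap means that both shCTCF values lie beyond both shLAC values.

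Members, lists, filters and the choice of this fit were made with earlier results of these data known. All members were named, and from each list the called genes or, where none was called, the 2 with the highest mean; some genes that this would name are not reported here. Neighbours named were those called, and the genes most like Scn2a were the 3 nearest. Alternatives were other scalings, gene sets, pseudocounts, filters, a constant prior, the replicate number as a block, and leaving out each library in turn, in which case the spread of the remaining pair stands for that of the lone library.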

Additional observations from a re-analysis of the deposited data

How the results depend on the processing

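Of 95 values of the 7 members under alternatives, 0 passed, 83 kept their direction and 12 changed sign. Without scaling, in the coding genes and in all genes alike, the log2 change was 0.058 for Scn1a, 0.033 for Scn2a, 0.092 for Scn3a, 0.12 for Scn2b and 0.15 for Scn3b, all positive as was the median gene (0.17). Leaving out 1 library gave -0.16 to -0.012 for Scn3a, -0.14 to -0.0055 for Scn2b, -0.17 to -0.048 for Scn1a and -0.10 to 0.025 for Scn3b, which changed sign without shLAC replicate 2 and without shCTCF replicate 1. Scn8a (0.09 to 0.34) and Scn4b (0.28 to 0.50) kept their sign in every fit that gave a value. For both, the groups did not overlap on either scale, so leaving out 1 library could hardly change the sign. Without either shCTCF library, or at a mean of at least 5 TPM, Scn4b missed the filter. It was thus fitted only where both libraries of the group in which it was higher were kept. Leave-one-out shares of alpha TPM differed by -0.50 to 0.12 points for Scn1a and by -0.86 to 0.68 for Scn3a.

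The count of genes called over the whole fit was 574. It was 173 as deposited (117 higher, 56 lower), 134 in all tested genes after scaling, 362 in all tested genes as deposited, 334 at a mean of at least 5 TPM, 186 with no filter, and 100 to 1105 with 1 library left out (1105 without shLAC replicate 1, 957 without shLAC replicate 2, 228 without shCTCF replicate 1, 100 without shCTCF replicate 2). Partner genes called went from 1 to 2 without shLAC replicate 1 or shLAC replicate 2, a leave-one-out range of 1 to 2. Neighbours called went from 1 to 0 in all tested genes after scaling, at a mean of at least 5 TPM, with no filter, with a constant prior and within 0.5 Mb, to 2 within 2 Mb, and to 0 to 4 with 1 library left out. The cause of these shifts was not tested.

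With a replicate block, 1140 genes were called over the whole fit, as were 3 partner genes, among them Kcnq3 (limma adjusted p = 0.0415), and 2 neighbours; 0 members passed and the lowest was Scn4b (limma adjusted p = 0.0613). The labels number the replicates but do not say that a number marks a shared culture or day, and with 2 pairs the deviations of same-numbered libraries correlated at r = 0.27 across genes. TPM keeps no depth, so the precision of low genes such as Scn4b cannot be given.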
